A study of Mus musculus with 18 samples.

Results

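Sox genes encode transcription factors that share a DNA-binding HMG box, and 9 of them, Sox1, Sox2, Sox4, Sox5, Sox6, Sox8, Sox9, Sox11 and Sox21, were followed from progenitor to neuron in the embryonic mouse forebrain. The members were taken by gene symbol, not by any measured value, and all 9 were found among the 55335 genes of the files. In the vertebrate brain the family works in relay. The B1 factors Sox1 and Sox2 hold neural progenitors in the progenitor state, the B2 factor Sox21 opposes them, the C factors Sox4 and Sox11 turn on neuronal genes as cells leave the cycle, the D factors Sox5 and Sox6 shape the subtypes of projection neurons and interneurons, and the E factors Sox8 and Sox9 are known for gliogenesis. Myt1l, the gene mutated here, encodes a zinc finger transcription factor of newborn neurons.

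Nuclei were profiled from 9 forebrains at embryonic day 14, 3 each from WT, Het and KO embryos, which carried none, 1 or both alleles of the germline MYT1L S710fsX frameshift. All embryos were C57BL/6J background progeny of Het by Het matings, were drawn from banked tissue of 3 litters, and carried no other allele or treatment by the labels. Each embryo gave a library in each of 2 runs, and the 18 libraries were summed per embryo. The genotype tag goes against the title in 6 libraries of run 1, and the titles were followed. Nuclei kept numbered 193778 of 261143 barcodes, 14834 to 25914 per animal with 4.30e+07 to 7.36e+07 UMIs (unique molecular identifiers, each counted as 1 RNA molecule), at a median of 2529 UMIs and 1541 genes per nucleus. A barcode occurred in more than 1 library 972 times within a run and 2768 times across runs. The level of the targeted gene gives no direction to check the labels by, since a frameshift need not lower its RNA. Myt1l in excitatory neurons measured 1829, 2073 and 1975 CPM (a gene's UMIs scaled to the total of the class in that animal) in WT 1, 2 and 3, 2046, 2235 and 2184 in Het, and 2239, 2477 and 2270 in KO (log2 change of KO over WT 0.27, SE 0.073, adjusted p = 0.135). All KO animals lay above all WT animals, as 7.22% of genes did. Within each replicate number Het lay above WT and KO above Het, an order not counted over all genes. With the number as a block Myt1l was called higher in KO (0.27, SE 0.042, adjusted p = 0.000615, where 5.03% of genes were called).

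Cell classes were rebuilt by clustering without the 9 genes and Myt1l and named from other markers, so UMIs counted for these Sox genes did not make the classes. Gm44068, a transcript inside Sox5, and Gm45025, inside Sox6, were not kept out of the clustering. The classes used here were radial glia (28721 nuclei), the stem cells of the ventricular zone; excitatory intermediate progenitors (10947), their Eomes-positive dividing progeny; excitatory neurons (53726); inhibitory progenitors (8815), which carry Dlx markers but also more inhibitory neuron markers than progenitor markers; inhibitory neurons (53348); oligodendrocyte progenitors (180), the glial precursors of the sample; Cajal-Retzius cells (1974), early Reln-positive neurons; and microglia with macrophages (324), which are not of neural origin. A diencephalic neuron-like class held 708 nuclei, all from Het 1, and 34931 nuclei stayed unnamed. Oligodendrocyte progenitors numbered only 11 to 27 per animal, so their levels carry more counting error than the rest. All values are levels in CPM as mean ± SD over the 9 animals unless stated, and no level was compared between genes, because a gene's UMIs also depend on its length and its transcripts' ends. A difference was called at a Benjamini-Hochberg adjusted p below 0.05 over all genes tested, by edgeR's quasi-likelihood test, with a log2 change beyond 0.2.

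By the GENCODE annotation of GRCm38, Sox1, Sox2, Sox4, Sox11 and Sox21 are genes of 1 exon, Sox9 has 3 exons, and Sox8 has 2 to 3 by transcript. Sox5 spans 953553 bases of the minus strand of chromosome 6 (143828425 to 144781977) and Sox6 spans 567925 bases of the minus strand of chromosome 7 (115470872 to 116038796), each almost all intron. Sox4 lies on chromosome 13 (28948919 to 28953713, minus strand), Sox11 on chromosome 12 (27334264 to 27342574, minus strand) and Sox2 on chromosome 3 (34650405 to 34652461, plus strand). Other annotated transcripts overlap 7 of the 9 genes, all but Sox9 and Sox11. Sox2ot and Sox1ot run on the same strand over Sox2 and Sox1, Gm44068 lies inside Sox5, and Gm45025 runs antisense inside Sox6, so reads of these pairs may not be fully told apart.

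Sox4 and Sox11, the C factors, rose from radial glia to the progenitors of both branches, and their levels ran together over clusters. Sox2, a B1 factor, fell towards excitatory intermediate progenitors and rose towards inhibitory progenitors. As examples of these changes between classes, the upstream sequences of these 3 members are shown. They were taken from RefSeq on GRCm38.p6, read 5′ to 3′ on the gene's strand, and end just before the RefSeq start (chr13:28953714-28953949, minus strand, for Sox4, where the last 14 bases lie in the annotated exon and are left out; chr12:27342719-27342968, minus strand, for Sox11; chr3:34649745-34649994, plus strand, for Sox2). Capitals mark CCAAT, the box of the general factor NF-Y, and AAGTT, the core of the motif that MYT1L binds, each on either strand (ATTGG and AACTT).
Sox4: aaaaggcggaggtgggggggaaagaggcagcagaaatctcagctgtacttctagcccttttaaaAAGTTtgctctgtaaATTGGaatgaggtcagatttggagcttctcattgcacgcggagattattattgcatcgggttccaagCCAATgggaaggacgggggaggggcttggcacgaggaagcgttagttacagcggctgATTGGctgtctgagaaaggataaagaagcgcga
Sox11: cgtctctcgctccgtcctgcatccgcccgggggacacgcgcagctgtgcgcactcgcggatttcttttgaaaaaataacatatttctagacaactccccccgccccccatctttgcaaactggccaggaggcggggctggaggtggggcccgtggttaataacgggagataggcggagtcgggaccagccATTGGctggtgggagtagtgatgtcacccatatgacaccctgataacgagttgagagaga
Sox2: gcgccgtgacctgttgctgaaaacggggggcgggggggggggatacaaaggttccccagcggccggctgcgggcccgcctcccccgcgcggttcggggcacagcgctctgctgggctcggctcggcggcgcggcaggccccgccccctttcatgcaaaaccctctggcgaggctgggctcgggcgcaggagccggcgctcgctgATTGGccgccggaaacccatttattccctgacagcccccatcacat
The stretch of Sox4 held 3 CCAAT matches and 1 AAGTT match, that of Sox11 held 1 CCAAT match and no AAGTT match, and that of Sox2 held 1 CCAAT match and no AAGTT match. Of all 32851 RefSeq promoters of 250 bases, 33.8% held CCAAT and 35.3% held AAGTT on either strand. Of the 13 promoters of the 8 members in the table, AAGTT was found in those of Sox4 and Sox8 and at 1 of the 6 starts of Sox6. The table holds no entry for Sox9. A match of letters is a description and not a binding site.

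The B1 factors were highest where inhibitory neurons are made. Sox1 was 69.4 ± 10.4 CPM in inhibitory progenitors, 33.6 ± 8.62 in inhibitory neurons, 24.3 ± 2.41 in radial glia, 12.8 ± 3.07 in excitatory intermediate progenitors and 5.67 ± 1.13 in excitatory neurons (n = 9 animals). Inhibitory progenitors stood above inhibitory neurons in all 9 animals with no overlap of ranges, and radial glia above excitatory intermediate progenitors likewise, while inhibitory neurons and radial glia overlapped. Sox2 followed nearly the same order, with 141 ± 18.4 CPM in inhibitory progenitors, 107 ± 51.9 in oligodendrocyte progenitors, 64.4 ± 7.31 in radial glia, 60.9 ± 9.34 in inhibitory neurons, 30.7 ± 6.15 in excitatory intermediate progenitors and 9.23 ± 1.70 in excitatory neurons. Radial glia and inhibitory neurons did not differ beyond their spread in Sox2. The level of both genes in excitatory neurons lay close to that in microglia, which should lack them (4.89 ± 8.04 CPM for Sox1 and 11.1 ± 13.1 for Sox2), so free RNA was not separated from expression there. Inhibitory neurons as a class had higher means, but their lowest clusters (6.14 CPM of Sox1 and 8.88 of Sox2, both in cluster 20) were near this background.

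Within inhibitory neurons the B1 level depended on the subtype (clusters are numbered by size). Sox2 averaged 116 ± 15.3 CPM in the caudal ganglionic eminence interneuron-like cluster, 92.7 ± 16.6 in indirect-pathway striatal-like neurons and 77.0 ± 11.9 in medial ganglionic eminence interneuron-like cells, against 15.1 ± 2.45 in direct-pathway striatal-like neurons. The ranges of the direct-pathway cells (11.9 to 20.1 CPM) and the indirect-pathway cells (61.5 to 120 CPM) did not overlap. Sox1 was 28.5 ± 7.03 CPM in the direct and 22.4 ± 3.42 in the indirect cells, which overlapped. The highest cluster mean of either gene was in cluster 25, the Nkx2-1-positive inhibitory progenitors, with 99.1 CPM of Sox1 and 158 CPM of Sox2.

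Sox21, the B2 factor, was a progenitor gene on both branches. It averaged 28.5 ± 3.00 CPM in radial glia, 19.5 ± 4.94 in inhibitory progenitors and 11.6 ± 2.70 in excitatory intermediate progenitors, and 3.00 ± 0.29 in excitatory neurons against 2.93 ± 0.32 in inhibitory neurons. The neuron classes overlapped, and the step between them was not called (log2 change -0.08, SE 0.11, adjusted p = 0.575). Microglia held no Sox21 UMI in any of 9 animals, which allows up to 3.79 CPM over the class, a limit above the level in neurons.

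The C factors were lower in radial glia than in the progenitor and neuron classes of either branch. Sox4 was 188 ± 25.7 CPM in radial glia, 449 ± 65.1 in excitatory intermediate progenitors, 427 ± 50.3 in inhibitory progenitors, 403 ± 92.6 in excitatory neurons and 308 ± 65.2 in inhibitory neurons. Sox11 was 399 ± 55.3 CPM in radial glia, 870 ± 108 in excitatory intermediate progenitors, 1110 ± 163 in inhibitory progenitors, 1205 ± 269 in excitatory neurons and 897 ± 190 in inhibitory neurons. The ranges of the intermediate progenitors and excitatory neurons overlapped for both genes. Much of the spread between animals went with the replicate number. In excitatory neurons the 3 animals numbered 1 had 242 to 355 CPM of Sox4 and 787 to 986 CPM of Sox11, all below the animals numbered 2 (395 to 548 and 1296 to 1633 CPM) and 3 (422 to 478 and 1304 to 1334 CPM). In radial glia this order was absent: number 1 animals had 173 to 206 CPM of Sox4, within the range of the others. Microglia, with few nuclei, had 120 ± 63.6 CPM of Sox4 and 273 ± 89.2 of Sox11, and their ranges (44.3 to 257 and 130 to 399 CPM) overlapped those of radial glia.

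The D factors split the neuronal classes. Sox5, known for corticofugal projection neurons of deep layers, was 5266 ± 151 CPM in excitatory neurons, 1048 ± 47.8 in excitatory intermediate progenitors, 885 ± 77.8 in inhibitory progenitors, 654 ± 48.8 in radial glia and 498 ± 71.0 in inhibitory neurons. Excitatory neurons (5091 to 5472 CPM) did not overlap any other class. Sox6, known for interneurons of the medial ganglionic eminence and for cortical progenitors, ran the other way, with 2908 ± 178 CPM in radial glia, 2191 ± 126 in excitatory intermediate progenitors, 1658 ± 123 in inhibitory neurons, 1259 ± 107 in inhibitory progenitors and 187 ± 25.2 in excitatory neurons. None of these 5 classes overlapped its neighbour in the order, and each was above the next in all 9 animals. Cajal-Retzius cells had 70.1 ± 25.4 CPM of Sox6, within the range of microglia (33.1 to 218 CPM). Excitatory neurons (156 to 228 CPM) overlapped that range too. Microglia also had 298 ± 249 CPM of Sox5 (75.7 to 843 CPM), which overlapped inhibitory neurons.

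Inside the classes the D factors varied most of the 9 genes among excitatory neurons. Sox5 was 9228 ± 477 CPM in the deep-layer-like cluster 1 and 3222 ± 109 in upper-layer and migrating-like neurons, with no overlap (8339 to 9897 against 3020 to 3402 CPM). Sox6 was the reverse, 40.1 ± 13.8 CPM in deep-layer-like neurons and 315 ± 33.5 in upper-layer and migrating-like ones. Nearly all of this came from cluster 0, led by the migrating-neuron marker Unc5d, with 535 CPM of Sox6, since cluster 2, named from upper-layer markers such as Cux1 and Cux2, had 43.5. Among the genes that set cluster 0 apart from other excitatory neurons were Eomes and Sstr2, known from intermediate progenitors, the class with 2191 CPM of Sox6, and their part in its Sox6 level was not tested. Among inhibitory neurons Sox6 averaged 3514 ± 229 CPM in medial and 2163 ± 304 in caudal ganglionic eminence interneuron-like cells, against 199 ± 48.4 in indirect-pathway and 129 ± 75.6 in direct-pathway striatal-like neurons.

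**Figure D1:**
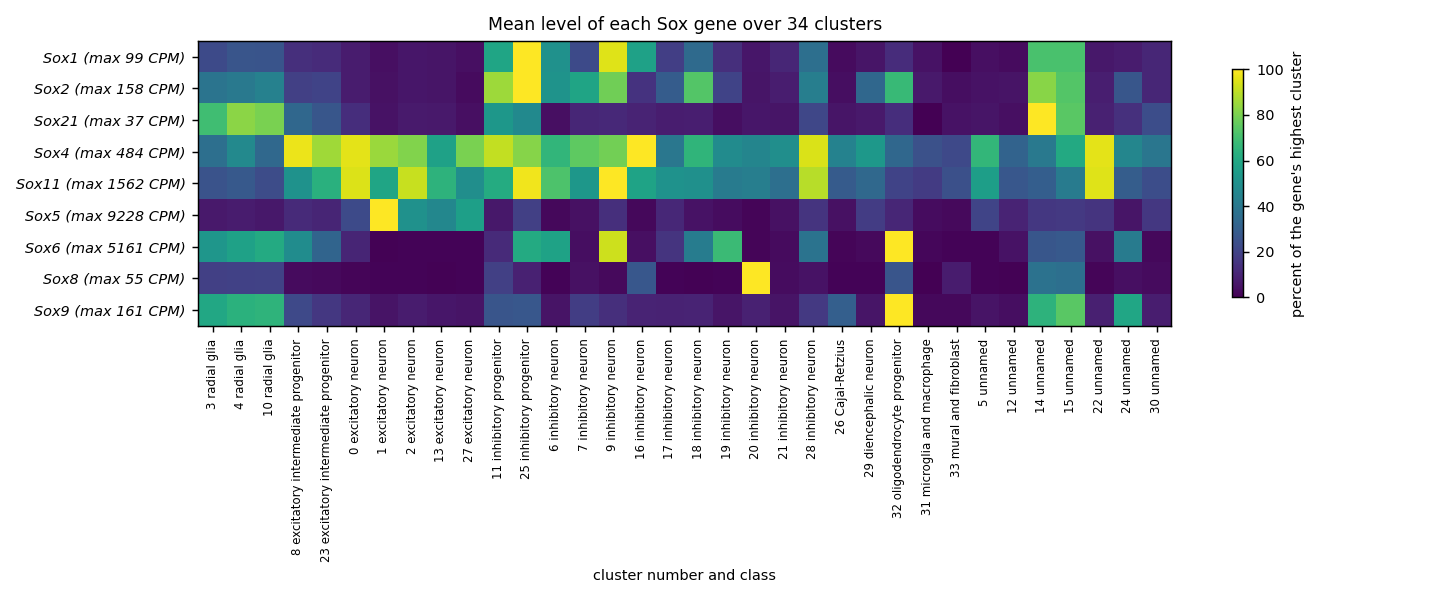
Mean level of each Sox gene (rows) in each of 34 clusters (columns, with number and class), as a percent of the gene's highest cluster, whose CPM stands beside the name. Sox5 peaks in excitatory cluster 1 (9228 CPM), Sox8 in inhibitory cluster 20 (54.7 CPM) and Sox6 and Sox9 in oligodendrocyte progenitors (5161 and 161 CPM).

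Of the E factors, Sox9 was highest in oligodendrocyte progenitors and radial glia as classes, and each was also present in a neuronal class. Sox9, which marks neural stem cells and the astrocyte lineage, was 161 ± 42.6 CPM in oligodendrocyte progenitors, 100 ± 14.3 in radial glia, 48.8 ± 15.3 in Cajal-Retzius cells, 42.7 ± 7.18 in inhibitory progenitors, 32.0 ± 9.15 in excitatory intermediate progenitors, 15.9 ± 1.29 in inhibitory neurons and 12.2 ± 1.35 in excitatory neurons. The neuronal Cajal-Retzius cells thus overlapped the inhibitory progenitors. Sox9 was higher in oligodendrocyte progenitors than in radial glia in 9 of 9 animals, though the ranges overlapped. Sox8 was 10.5 ± 1.47 CPM in radial glia, 8.99 ± 1.55 in inhibitory progenitors, 7.98 ± 1.5 in inhibitory neurons, 1.55 ± 0.44 in excitatory intermediate progenitors and 0.51 ± 0.19 in excitatory neurons. Microglia held no Sox8 UMI in any of 9 animals, which allows up to 3.79 CPM, above its level in excitatory intermediate progenitors and neurons. The 14.5 ± 14.8 CPM of Sox8 in oligodendrocyte progenitors came from 8 UMIs, with 4 of 9 animals at 0, and gives no place in this order. Within inhibitory neurons Sox8 was concentrated in the direct-pathway striatal-like cells, which had 37.3 ± 5.44 CPM (31.6 to 48.0), against 2.43 ± 1.11 in the indirect-pathway cells (0 to 3.84) and 0.86 ± 0.39 in medial ganglionic eminence interneuron-like cells. Of their 2 clusters, cluster 20 had 54.7 CPM and cluster 16 had 14.9. No other member separated these clusters in that direction, since all others were lower in cluster 20, for example Sox2, Sox4 and Sox6 (8.88, 220 and 77.0 CPM, against 23.3, 484 and 202 CPM in cluster 16).

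**Figure D2:**
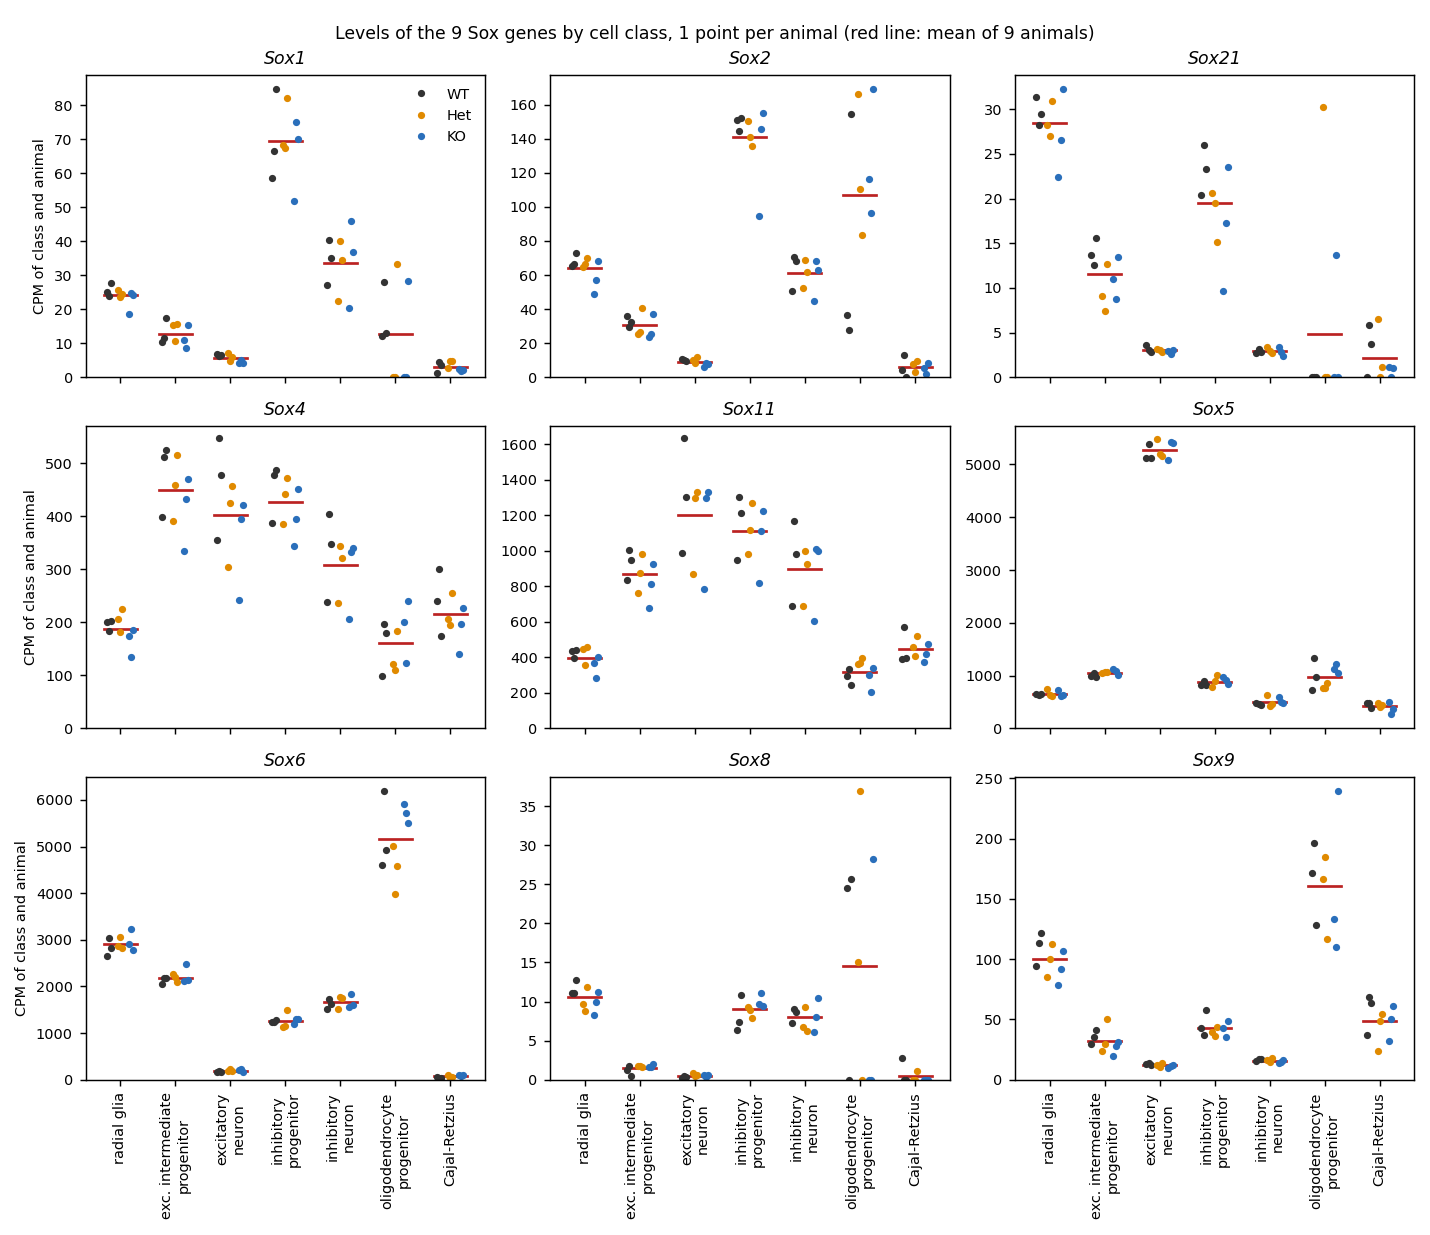
Level (CPM, linear axis from 0) of each Sox gene in 7 classes, 1 point per animal coloured by genotype, with a red line at the mean of 9 animals. Sox5 is separate in excitatory neurons (5091 to 5472 CPM), Sox1 and Sox2 are highest in inhibitory progenitors, and the 3 genotypes overlap in nearly every panel.

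Tested within animals, the 9 genes moved at nearly every step, as did a large share of all genes. From radial glia to excitatory intermediate progenitors all 9 members were called, 3 higher and 6 lower, where 48.7% of 18610 genes were called. Sox4 (log2 change 1.26, SE 0.069), Sox11 (1.13, SE 0.072) and Sox5 (0.70, SE 0.076) rose, and Sox8 (-2.70, SE 0.18), Sox9 (-1.64, SE 0.066), Sox21 (-1.30, SE 0.097), Sox2 (-1.07, SE 0.080), Sox1 (-0.93, SE 0.12) and Sox6 (-0.39, SE 0.061) fell. From there to excitatory neurons 8 were called, against 60.4% of all genes. Sox5 rose by a further 2.59 (SE 0.079) and Sox11 by 0.71 (SE 0.070), while Sox6 fell by 3.30, Sox21 by 1.67, Sox2 by 1.46, Sox8 by 1.36, Sox9 by 1.13 and Sox1 by 0.90 on the log2 scale. Sox4 was not called at this step (0.09, SE 0.066, adjusted p = 0.252), but was with no filter on low counts (0.21) and in WT animals alone (0.24). So the B and E factors, 5 of the 9 genes, fell at both steps to an excitatory neuron, as did Sox6, by far the more at the last, and Sox5 and Sox11 rose at both. At the last step Sox8 fell from 1.55 to 0.51 CPM, both under the 3.79 CPM that no UMI in microglia allows.

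On the inhibitory branch the B1 factors went the other way at the start. From radial glia to inhibitory progenitors 8 members were called, against 52.6% of all genes: Sox1 (log2 change 1.55, SE 0.086), Sox11 (1.5, SE 0.072), Sox4 (1.21, SE 0.070), Sox2 (1.18, SE 0.064) and Sox5 (0.48, SE 0.077) rose, and Sox9 (-1.22, SE 0.066), Sox6 (-1.17, SE 0.063) and Sox21 (-0.46, SE 0.090) fell. The call on Sox21 was lost in WT animals alone (-0.23). Sox8 was not called (-0.19, SE 0.12, adjusted p = 0.178). From inhibitory progenitors to inhibitory neurons 7 were called, against 61% of all genes. The first of these classes is not free of neuronal markers: inhibitory neuron markers summed to 4604 to 5304 CPM there and 3278 to 4347 CPM in inhibitory neurons, and the progenitor markers to 1250 to 1611 and 248 to 335 CPM. Their part in the step was not tested. Sox6 alone rose (0.59, SE 0.062), and Sox21 fell by 2.60, Sox9 by 1.20, Sox2 by 1.03, Sox1 by 0.84, Sox5 by 0.64 and Sox4 by 0.29. The call on Sox4 was lost without WT 1 (-0.19), Het 1 (-0.18) or KO 1 (-0.20), and under DESeq2's size factors (-0.18), which moved the median of all genes at this step by 0.11. Sox11 (-0.12, SE 0.070, adjusted p = 0.119) and Sox8 (0.03, SE 0.12, adjusted p = 0.834) were not called.

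Set side by side, inhibitory neurons were higher than excitatory neurons in Sox8 (log2 change 3.90, SE 0.13), Sox6 (3.11, SE 0.067), Sox2 (2.69, SE 0.068), Sox1 (2.53, SE 0.083) and Sox9 (0.34, SE 0.063), and lower in Sox5 (-3.46, SE 0.081), Sox11 (-0.47, SE 0.069) and Sox4 (-0.42, SE 0.064). These 8 calls compare with 45.3% of all genes. The Sox8 difference sat in the direct-pathway cells described above, and in the other neuron subtypes named Sox8 was at most 2.43 CPM.

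**Figure D3:**
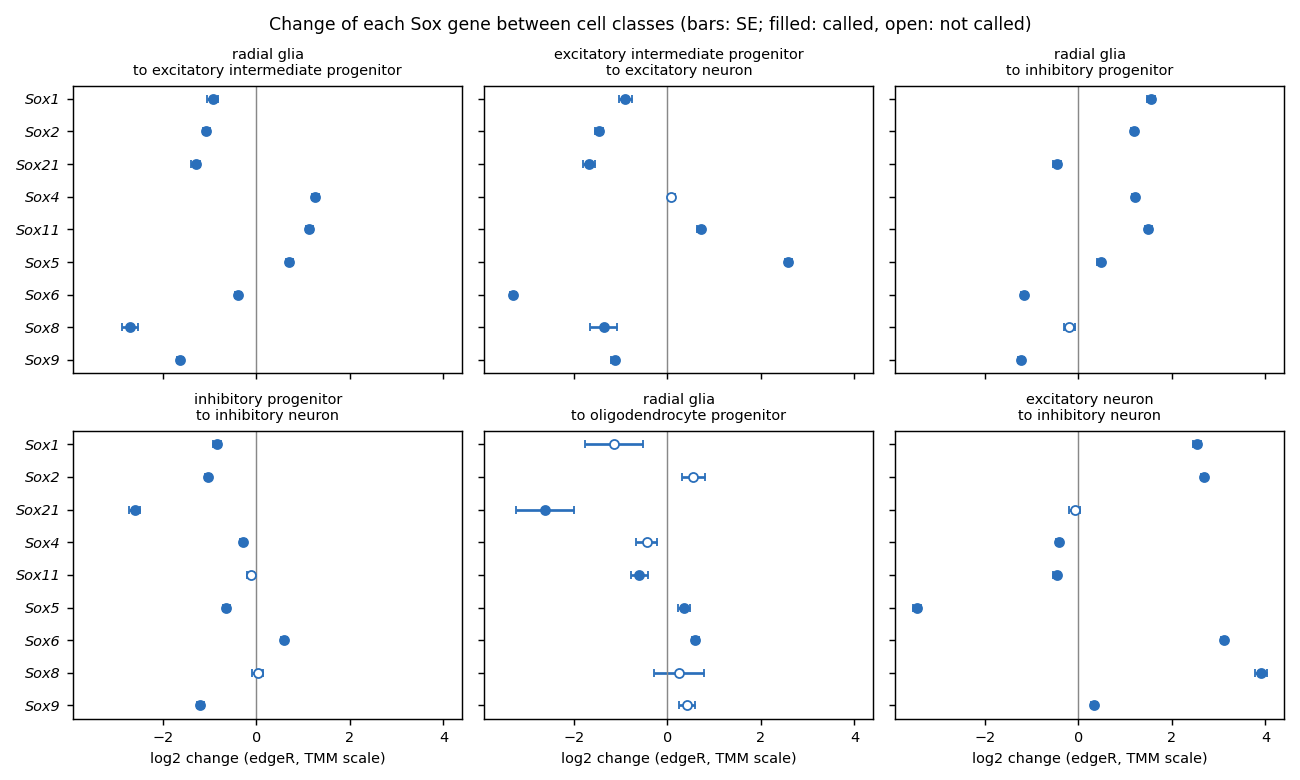
Log2 change (x axis, edgeR on the TMM scale, bars are SE) of each Sox gene in 6 comparisons of classes within 9 animals, filled where called and open where not. Sox4 and Sox11 lie right of 0 from radial glia to excitatory intermediate progenitors and to inhibitory progenitors, and Sox1 and Sox2 lie left of 0 towards excitatory intermediate progenitors (-0.93 and -1.07) and right of 0 towards inhibitory progenitors (1.55 and 1.18).

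In the glial precursors 4 members differed from radial glia by the same test, against 24.1% of all genes. At least 6 of 7 oligodendrocyte progenitor markers had a UMI in every animal and summed to 8472 to 12659 CPM, against 21.2 to 34.7 in radial glia. The class also carried radial glia markers, at least 6 of 8 per animal, summing to 1098 to 1932 CPM, which overlapped the 1164 to 1671 CPM of radial glia themselves. Their part in the comparison was not tested. Sox6 was 5161 ± 719 CPM against 2908 ± 178 in radial glia, with no overlap (log2 change 0.60, SE 0.073, adjusted p = 5.7e-11). Sox5 was also called higher (0.35, SE 0.13, adjusted p = 0.0410), but 5 of the 9 animals, left out in turn, each ended that call (WT 2, Het 3 and all KO animals; 0.26 to 0.36). Sox21 (-2.61, SE 0.62) and Sox11 (-0.60, SE 0.18) were called lower, and the call on Sox11 was lost without WT 3 (-0.50). All-gene scaling mattered at this step: the median of all genes was -0.50 under TMM and -0.07 under DESeq2's size factors. Relative to that median Sox6 and Sox5 lay higher still, and Sox11 lay near it. With the other scaling Sox2 (0.99) and Sox9 (0.86) were called higher and Sox11 (-0.16) was not called. With TMM the call on Sox2 was made without WT 1 (0.70) or WT 2 (0.65), and that on Sox9 without WT 3 (0.54) or Het 3 (0.48). Sox1, Sox8 and Sox21 rested on 7, 8 and 3 UMIs in the whole class, with no Sox21 UMI in 7 of 9 animals, a count of 0 that allows 36.8 to 111 CPM per animal. For these genes the depth shows little.

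The question of genotype was then put to each class, in 9 animals with 3 per genotype. With genotype as the only term, as the study tested its classes, neither edgeR nor DESeq2 called any member tested in 7 classes. This held for KO or Het against WT and for any genotype difference. After its filter edgeR tested 8 members in excitatory intermediate progenitors, 5 in Cajal-Retzius cells and 4 in microglia, and all 9 in the other classes. In excitatory neurons edgeR called 0.466% of 18883 genes for KO against WT, in Cajal-Retzius cells 0.263% (0.16% higher), in inhibitory neurons 0.0106%, and 0% in the other 4 classes. For any genotype difference the shares were 0.117%, 0.148% and 0.00529%. For Het against WT no gene was called in any class. At an unadjusted p below 0.05, 3 members passed in excitatory neurons for KO (Sox1, Sox2, Sox6), 2 in radial glia (Sox4, Sox11) and 1 in Cajal-Retzius cells (Sox6), where 11.3%, 2.31% and 9.07% of all genes did. For Het, Sox6 passed in excitatory neurons (0.28, SE 0.11), Sox21 in excitatory intermediate progenitors (-0.53, SE 0.23) and Sox5 in microglia. There 679 of 18883, 391 of 12907 and 105 of 2823 genes passed. With no filter on low counts, Sox4, Sox6 and Sox1 were called in KO excitatory neurons also in this fit, with 1.37% of 41619 genes called, and Sox6 in Cajal-Retzius cells, with 0.42% of 26674 called.

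Replicate number had to be taken into account, because animals of the same number deviated together in 5 classes, excitatory neurons and radial glia among them. With the number as a block, KO excitatory neurons had less Sox4 (log2 change -0.38, SE 0.059, adjusted p = 0.000676), more Sox6 (0.31, SE 0.054, adjusted p = 0.00182) and less Sox1 (-0.52, SE 0.14, adjusted p = 0.0420) than WT, 3 members called where 5.03% of all genes were. Sox1 in excitatory neurons lay close to its level in microglia (4.89 ± 8.04 CPM), so free RNA was not separated from expression in this call. For any genotype difference 2 members, Sox4 and Sox6, were called under the block, with 3.03% of all genes called. For Het against WT no member was called, with 0.0477% of all genes called.

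The values by animal show what the block does. Sox4 was 355, 548 and 478 CPM in WT 1, 2 and 3, 304, 425 and 456 in Het, and 242, 395 and 422 in KO. The groups overlapped, yet KO was below WT in 3 of 3 numbers, as were 23% of genes. Het lay between them in each number, an order not counted over all genes. Sox6 was 158, 177 and 156 CPM in WT, 191, 219 and 179 in Het and 202, 228 and 173 in KO, with every Het animal above every WT animal (background 4.53% of genes) and KO 3 within the WT range. Sox1 was 6.94, 6.30 and 6.47 CPM in WT, 7.12, 4.87 and 5.85 in Het and 4.11, 5.10 and 4.23 in KO, from 56.3 to 144 UMIs per animal. Sox2 was 10.5, 10.1 and 9.75 CPM in WT, 9.91, 8.41 and 12.04 in Het and 6.20, 8.24 and 7.99 in KO. For Sox1 and Sox2 all KO animals lay below all WT animals, as 8.67% of genes did, and Sox2 was not called under the block (-0.40, SE 0.13, adjusted p = 0.0725). Sox11, the partner of Sox4, was 986, 1633 and 1304 CPM in WT, 871, 1299 and 1334 in Het and 787, 1296 and 1333 in KO, and was not called (-0.19, SE 0.058, adjusted p = 0.0670). Sox5 was 5126 to 5379 CPM in WT and 5091 to 5424 in KO (0.05, SE 0.041 with the block), and Sox8, Sox9 and Sox21 were not called.

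**Figure D4:**
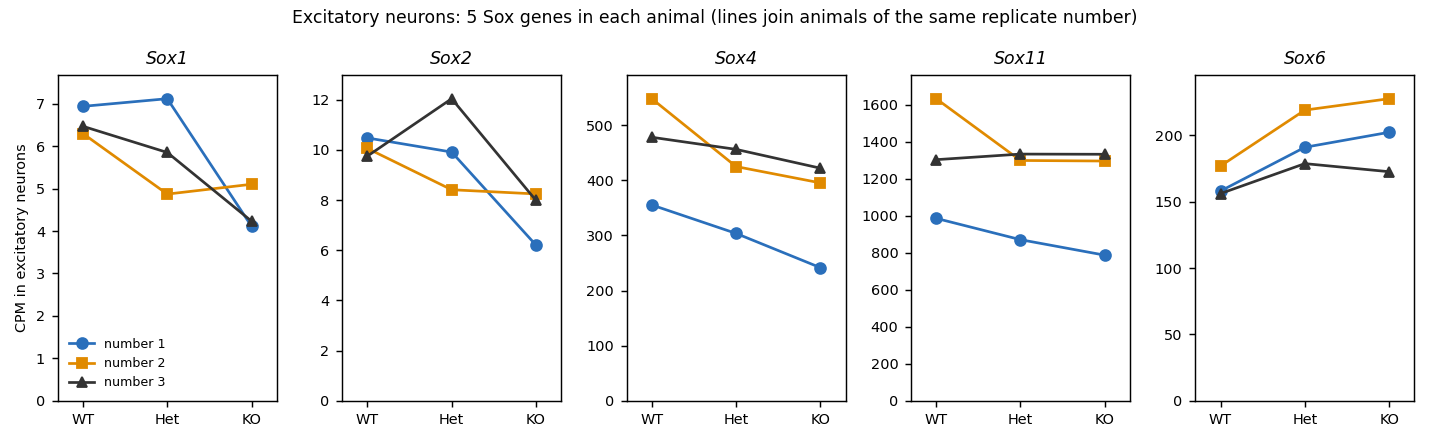
Level (CPM, axis from 0) of 5 Sox genes in excitatory neurons of WT, Het and KO animals, with lines joining animals of the same replicate number. Sox4 falls from WT to KO along all 3 lines, from 355 to 242, 548 to 395 and 478 to 422 CPM, and for Sox4 and Sox11 the animals numbered 1 lie below all the others.

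These calls rest on few animals. Without the animals numbered 2 none was called (Sox4 -0.34, adjusted p = 0.0510; Sox6 0.27, adjusted p = 0.111; Sox1 -0.65, adjusted p = 0.0897), with 1.15% of all genes called. Without number 1 Sox4 alone was (-0.32, adjusted p = 0.0135), with 1.56% of all genes, and not Sox6 (0.27, adjusted p = 0.0516) or Sox1 (-0.45, adjusted p = 0.237). Without number 3 Sox4 (-0.48), Sox6 (0.39) and Sox11 (-0.29) were and Sox1 was not (-0.47, adjusted p = 0.139), with 6.54% of all genes. The changes of Sox4, Sox6 and Sox1 kept their sign each time. In run 1 alone, which held 19.4% of nuclei, none was called (Sox4 -0.28, adjusted p = 0.0716, with 0.312% of genes called), and in run 2 alone Sox4 and Sox6 were, with 4.86% of genes called.

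The Sox4 difference was present in each part of the excitatory class. Fitted cluster by cluster with the block, a choice made after seeing the class result, Sox4 was called lower in KO in all 5 clusters, with log2 changes of -0.36 in cluster 0, -0.39 in deep-layer-like cluster 1, -0.34 in cluster 2, -0.41 in cluster 13 and -0.46 in cluster 27, where 0.188%, 6.51%, 4.37%, 0.565% and 5.18% of genes were called. With genotype alone no member was called in any of the 5. The Sox6 difference was less even: it was positive in clusters 0, 1, 2 and 27, and called in cluster 27 alone. Cluster 0, which holds most Sox6, had 0.18 (SE 0.050, adjusted p = 0.202), cluster 1 had 0.01, cluster 2 had 0.15 and cluster 13 had -0.19, and the call was made only in cluster 27 (1.17, SE 0.29, adjusted p = 0.0148), where Sox6 is low (51.1 CPM). In WT, Het and KO animals cluster 0 made up 29.5% to 33.5%, 32.2% to 37.0% and 32.8% to 37.8% of excitatory neurons, and its part in the class difference was not tested. Sox11 was called lower in cluster 0 (-0.31, SE 0.056, adjusted p = 0.00868), and Sox5 higher in clusters 2 (0.20, SE 0.048) and 27 (0.21, SE 0.055).

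Beside the lower Sox1, the summed radial glia markers in excitatory neurons were 151 to 161 CPM in WT and 144 to 149 in KO with all 8 markers present, and the inhibitory progenitor markers 20.2 to 23.2 in WT and 15.6 to 19.4 in KO with at least 5 of 6 present. Neither pair of ranges overlapped, where 8.67% of single genes had all KO animals below all WT animals. The part of these markers in the Sox1 and Sox2 differences was not tested. Inhibitory neuron markers, at 51.6 to 69.1 CPM in WT and 45.1 to 69.2 in KO, overlapped.

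Whether a difference in the KO effect between classes was called depended on the filter. In the test of the difference itself, the KO effect on Sox4 was 0.23 lower in excitatory than in inhibitory neurons on the log2 scale (SE 0.061, adjusted p = 0.410), and that on Sox6 was 0.26 higher (SE 0.086, adjusted p = 0.666), with 0.0251% of genes called. With no filter on low counts the difference between these classes was called for Sox4, Sox6 and Sox1, with 0.489% of 44338 genes called. Fits with no filter could give far smaller p-values at like changes. In excitatory neurons with the block, Sox4 (-0.38) had an unadjusted p of 4.9e-15 with no filter (SE 0.048) and 4.0e-06 with it (SE 0.059). The calls made only with no filter are therefore weaker ground. Against radial glia, with the filter, the differences were -0.13 for Sox4 (SE 0.24, adjusted p = 0.976) and 0.23 for Sox6 (SE 0.071, adjusted p = 0.416), with 0.068% called.

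In the other classes no member was called with genotype as the only term. In radial glia KO changes ran from -0.26 to 0.08 with 7 of 9 negative. Sox2, Sox4, Sox8, Sox9 and Sox11 were each below the WT animal of the same number in 3 of 3 KO animals, as were 15.4% of all genes. None was called with the block either, and the lowest unadjusted p was that of Sox11: 436, 397 and 441 CPM in WT, 448, 359 and 457 in Het and 370, 285 and 402 in KO (log2 change of KO -0.26, SE 0.11, adjusted p = 1.00; with the block -0.27, adjusted p = 0.175). In inhibitory neurons KO changes ran from -0.15 to 0.19, in excitatory intermediate progenitors from -0.38 to 0.11 and in inhibitory progenitors from -0.38 to 0.34. The members with the lowest p there were Sox5 (0.19, SE 0.13, adjusted p = 0.941), Sox11 (-0.19, SE 0.10, adjusted p = 0.999) and Sox21 (-0.38, SE 0.21, adjusted p = 1.00). Sox4 was below the WT animal of the same number in 3 of 3 KO animals in these 3 classes too, as were 21.5%, 15.6% and 13.9% of all genes. It was also below WT in 3 of 3 Het animals in each, but in 1 of 3 in radial glia. The shares of all genes for Het were not counted. With the block the KO change of Sox4 in these 3 classes was -0.15 (SE 0.055, adjusted p = 0.285), -0.20 (SE 0.060, adjusted p = 0.355) and -0.18 (SE 0.063, adjusted p = 0.957). No member was called in these 3 classes. In Cajal-Retzius cells Sox6 was 63.3, 44.0 and 42.9 CPM in WT, 106, 41.0 and 60.4 in Het and 99.9, 83.1 and 90.5 in KO. All KO animals lay above all WT animals, as 7.06% of genes did, and the change was not called with genotype as the only term (0.87, SE 0.25, adjusted p = 0.181). It was called with no filter on low counts, and with the block (adjusted p = 0.025, 0.868% of genes called). Same-number correlations in this class were 0.032 to 0.27, not all over the 0.1 taken here to show pairing. In microglia 4 members could be tested, and the lowest p was that of Sox5, for Het against WT (-1.23, SE 0.57, unadjusted p = 0.0461, adjusted p = 0.999) and for KO against WT (-0.91, SE 0.55, adjusted p = 0.999).

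Other genes of the family and its partners were read from lists. Of 14 other Sox genes and overlapping transcripts, 6 passed the filter in the steps. Sox2ot rose with Sox2 from radial glia to inhibitory progenitors (613 to 7396 CPM, log2 change 3.63, SE 0.095) and fell towards excitatory intermediate progenitors (154 CPM, -1.99, SE 0.098). Sox1ot likewise went from 76.3 to 969 CPM in inhibitory progenitors (3.71, SE 0.084) and to 25.3 in excitatory intermediate progenitors (-1.62, SE 0.12). Sox13, a D factor, fell towards inhibitory progenitors (-2.57) and excitatory intermediate progenitors (-3.12), and Sox12, a C factor, fell towards excitatory intermediate progenitors (-0.50, SE 0.075) and rose from there to excitatory neurons (1.05, SE 0.070). Sox10, the E factor of the oligodendrocyte lineage, was 0.056 CPM in radial glia and 181 in oligodendrocyte progenitors (10.98, SE 0.38).

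Of 28 genes known to act with Sox factors, such as the POU factors, Notch genes and proneural genes, 15 were called higher and 7 lower from radial glia to excitatory intermediate progenitors, with a median log2 change of 0.23 (of all genes 20.8% were higher and 27.9% lower, median -0.05). Towards inhibitory progenitors 10 were higher and 12 lower (median 0.04; of all genes 23.6% and 29%, median -0.04). From excitatory intermediate progenitors to neurons 6 were higher and 18 lower (median -0.80; of all genes 29.3% and 31%, median -0.01), among them Notch1 (-3.22), the proneural gene Neurog2 (-3.22), Eomes (-2.96) and Gli3 (-2.84). The last inhibitory step had the same counts, 6 higher and 18 lower (median -0.98; of all genes 32.9% and 28.1%, median 0.06), among them Notch1 (-3.05), Tead2 (-2.97) and Gli3 (-2.84). Between excitatory and inhibitory neurons 9 were higher and 15 lower (median -0.24; of all genes 22.6% and 22.7%, median -0.01), led by Lhx6 (5.80), the interneuron factor, and Fezf2 (-4.69), that of deep-layer neurons. In the oligodendrocyte progenitors 2 were higher, 1 of them Olig2 (6.55), and 12 lower (median -0.85; of all genes 6.97% and 17.1%, median -0.50 under TMM). With genotype as the only term no gene of either list was called in any class, for KO or Het.

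Over the 34 clusters, the genes most like each member by Pearson's r of log2(CPM + 1) included other members. Sox11 was the closest to Sox4 (r = 0.88), and Sox1 was closest to Sox1ot (0.88), Gm42692 (0.86) and Sox2 (0.84). For Sox2 the closest were Gm42692 (0.91), Cdca7 (0.88) and Sox2ot (0.85), and for Sox11 Clasp1 (0.90), Smarca4 (0.90), the ATPase of the BAF chromatin remodeller, and Arhgef7 (0.89). Sox9 ran with the Notch target Hes5 (0.92), and Sox21 with Fam133b (0.92). The nearest genes to Sox5 and Sox6 were the transcripts inside them, Gm44068 (0.97) and Gm45025 (0.97), followed by Slc17a7 (0.78), the vesicular glutamate transporter, for Sox5. Sox8 was nearest to Spata13 (0.81). These are descriptions over clusters that come from the same libraries and differ in depth.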

How the data were processed

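Nuclei of E14 forebrain were profiled by combinatorial barcoding (ScaleBio). Per the labels and methods, the authors mapped reads to mm10 and counted UMIs with ScaleRna and deposited a matrix of estimated counts per gene and nucleus for each library, of which 6.70% to 8.71% of entries are not whole. The sources used here do not give the aligner, the annotation or the use of strand. The submitters' processing notes also name Seurat 4.3.0, DESeq2 1.38.3 and Scanpy 1.12.0.

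Limits per nucleus were 800 and 6000 for UMIs, 300 and 3000 for genes, 1% for the mitochondrial share and, for log genes over log UMIs, 0.9 or more, and the 5% with the highest Scrublet score per library were removed (Scrublet's own threshold marked at most 0.023%). Scanpy 1.11.5 clustered them (3000 variable genes, 50 components, 20 neighbours, Leiden resolution 1, igraph 0.11.9). Variable genes excluded the 9 members, Myt1l, sex-linked and mitochondrial genes, and the overlapping transcripts Sox1ot, Sox2ot, Sox5os4 and Sox6os. Other overlapping transcripts, Gm44068 and Gm45025 among them, stayed eligible. A class was named from a marker list when at least 3 of its genes were detected (at least 10 CPM and 1.5-fold over the other clusters); the list with both the highest share detected and the highest mean fold gave the name. Where these differed or the share was tied, the list with the most genes among the cluster's 10 leading genes did, and a cluster whose leading genes favoured another list stayed unnamed. The treatment of ties, and the need for Reln and Trp73 in Cajal-Retzius cells, were set after seeing the data. WT 3 was the only animal with Xist. Counts were summed per animal and class, rounded, filtered by filterByExpr, scaled by TMM and tested with edgeR 4.0.16 in R 4.3.3 (glmQLFit, two-sided): genotype only, in classes with at least 20 nuclei per animal; class with the animal as block for steps, at least 10 nuclei; and class by genotype. Limits for a count of 0 use 3 counts and cover counting error only.

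Replicate numbers were taken to pair animals where every same-number correlation of deviations from the group means was over 0.1. This held in excitatory neurons (0.21 to 0.70, against -0.55 to 0.20 for other numbers), radial glia (0.26 to 0.73), inhibitory neurons (0.26 to 0.69), excitatory intermediate progenitors (0.18 to 0.44) and inhibitory progenitors (0.17 to 0.43), and not in Cajal-Retzius cells (0.032 to 0.27) or microglia (-0.092 to 0.16). The labels do not say what a number shares. On data simulated for 18584 genes of excitatory neurons the KO test recovered 37.4% of log2 changes of 0.5 and 73.7% of those of 1, and on 17155 genes the step test recovered 81.6% and 98.9%. For radial glia the KO test recovered 25% and 73%. The simulated counts held no shared effect of the replicate number, and changes below 0.5 were not simulated. All 9 members are reported; of the other genes, those called with the largest change and at least 20 CPM, at most 4 per list and comparison. Some genes that this rule names are not reported here. The members and lists were chosen with earlier results of these data known.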

Additional observations from a re-analysis of the deposited data

How the results depend on the processing

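Across the alternatives tried, 480 of 490 counts of members called were equal to the main count or, where both fits called members, close to it. Single calls gained or lost at the class steps, such as those on Sox4 and Sox21 given above, are within this tolerance. The 10 others were as follows. With no filter on low counts, 3 members were called for KO against WT and 2 for any genotype difference in excitatory neurons. Also with no filter, 1 and 1 were called in Cajal-Retzius cells, and 3 for the KO effect in excitatory against inhibitory neurons. With the replicate block, 3 and 2 were called in excitatory neurons and 1 in Cajal-Retzius cells (Sox6 0.87, adjusted p = 0.025). Cajal-Retzius cells fell short of the rule for pairing by number. From radial glia to oligodendrocyte progenitors, 2 were called in WT animals alone and 2 with 10% of nuclei removed by doublet score, where the cause was not tested. The replicate block changed no other call. In alternatives added after seeing the data, the block in excitatory neurons gave 2 members in run 2, 0 in run 1, 3 with 10% doublets removed, 3 at Leiden resolution 0.5, 3 with RLE size factors and 4 with no filter, 0 to 3 without the animals of 1 number, and 2, 1, 2, 1 and 3 in clusters 0, 1, 2, 13 and 27 fitted alone. Among the class steps and the members with the lowest p in each class, the sign changed in 6 values, none called: Sox6 in Het Cajal-Retzius cells at resolution 0.5 (-0.29), Sox5 in Het inhibitory neurons without Het replicate 1 (-0.037; -0.037 to 0.25 without 1 animal), Sox21 between neuron classes in run 1 (0.069), Sox8 from inhibitory progenitors to neurons in run 1 (-0.0707) and without WT replicate 2 (-0.040; -0.040 to 0.15 without 1 animal), and Sox11 there in run 1 (0.025). Direction and call were kept in 907 of 945 step changes and 268 of 278 genotype changes. Cajal-Retzius cells in run 1, microglia in either run, oligodendrocyte progenitors in run 1 and inhibitory progenitors at resolution 0.5 were not run, for too few nuclei or no such class. At this depth Sox1, Sox8 and Sox21 rested on 7, 8 and 3 UMIs in oligodendrocyte progenitors.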
